A study of Mus musculus with 48 samples.

Results

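Transcript levels of 9 genes that couple glucose to insulin release were followed through 48 mouse RNA-seq libraries: Abcc8, Kcnj11, Slc2a2, G6pc2, Glp1r, Gipr, Slc30a8, Cacna1c and Cacna1d. They were chosen by name for their place in this pathway, with earlier results of these data known. Each was found once among the 39017 Ensembl identifiers of the count table. The cells were of 2 mouse lines made from neuroendocrine tumours of the pancreas, βTC3 and AJ-5257-1, called AJ here. Each line carried a doxycycline (dox) inducible plasmid, and the study asked what ALK7 (gene Acvr1c), a receptor of the activin and TGF-beta family, does in such cells. In batch 1 both lines were sampled with the empty vector at 0, 2 and 24 h and with constitutively active ALK7 (ALK7-CA) at 2 and 24 h, with dox at 2 µg/ml. Batch 2 held vector cells of both lines without dox, each with and without activin B, a ligand of ALK7, at 50 ng/ml for 24 h. Batch 2 also held AJ cells in which dox had induced wild-type ALK7 for 24 h, again with or without the ligand, and no dox-treated vector group. Each of the 16 groups had 3 libraries from triplicate wells of 1 line, so p-values measure the spread between wells and may not cover separate cultures. Depth was 22.15 to 38.85 M counts per library in batch 1 and 17.98 to 25.27 M in batch 2.

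In a pancreatic beta cell, glucose enters through the transporter GLUT2 (Slc2a2) in rodents and is phosphorylated, a step that the glucose-6-phosphatase of islets, G6pc2, works against. The ATP that follows closes the KATP channel, built of the pore Kir6.2 (Kcnj11) and the sulfonylurea receptor SUR1 (Abcc8), and the membrane depolarizes. L-type calcium channels, with the pore subunits Cav1.2 (Cacna1c) and Cav1.3 (Cacna1d), then open and calcium triggers release of insulin, which is stored with zinc brought into the granules by ZnT8 (Slc30a8). The receptors for the incretin hormones GLP-1 (Glp1r) and GIP (Gipr) raise cAMP and amplify that release.

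The lines differed in the level of beta cell markers at the start. In vector cells of batch 1 without dox, Ins1 and Ins2, the mouse insulin genes, stood at 2560 and 8440 CPM (counts relative to library size, scaled over all libraries) in βTC3 and at 1.11 and 0.148 CPM in AJ, whereas 8 of 8 general endocrine markers reached 1 CPM in both. Of 8 beta cell markers, 7 reached 1 CPM in βTC3 and 6 in AJ, with sums of 16700 to 20300 and 1190 to 1250 CPM. Somatostatin (Sst) was at 2180 CPM in these AJ cells. Smad7, an inhibitor that ALK7 signalling is known to induce, was higher in all 7 comparisons of receptor or ligand with its control, from 2.17-fold in βTC3 after 2 h of ALK7-CA to 10.6-fold in AJ after 24 h. Acvr1c itself was not higher in any of the 7 and was lower in 6, so reads assigned to the mouse gene gave no check of the plasmid. Replicate 1 of AJ ALK7-CA at 24 h stood apart. In it, 9 genes typical of βTC3 (at least 50 CPM in every βTC3 library and under 0.5 CPM in every AJ vector library of batch 1) had a median of 5.51% of their βTC3 level, against 0.0149 to 0.182% in the 26 other AJ libraries. The AJ vector libraries of batch 1 among these are low by that rule. The other AJ libraries, which the rule did not use, gave 0.0269 to 0.182%. Values of the 9 genes in AJ at 24 h of ALK7-CA are therefore given with and without that library.

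Levels are given first for vector cells without dox, as CPM per kilobase of exon where genes are set against each other. In βTC3 of batch 1 the order was G6pc2 at 1060, Slc30a8 at 225, Abcc8 at 77.7, Glp1r at 35.3, Kcnj11 at 11.6, Gipr at 7.43, Cacna1c at 4.73, Cacna1d at 4.39 and Slc2a2 at 1.5 CPM per kb. Neighbours in that order did not overlap, except Kcnj11 with Gipr and Cacna1c with Cacna1d. In AJ of the same batch the order was G6pc2 at 83.2, Abcc8 at 43.0, Cacna1d at 5.55, Cacna1c at 4.22, Kcnj11 at 3.01, Slc30a8 at 2.13, Gipr at 1.08, Glp1r at 0.578 and Slc2a2 at 0.0099 CPM per kb, with no overlap between neighbours. G6pc2 led in both lines, Slc30a8 and Glp1r ranked much lower in AJ, and the rodent glucose transporter gene was last in both. In batch 2 Gipr stood above Kcnj11 in both lines, without overlap, and Cacna1d stood above Cacna1c in βTC3.

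**Figure D1:**
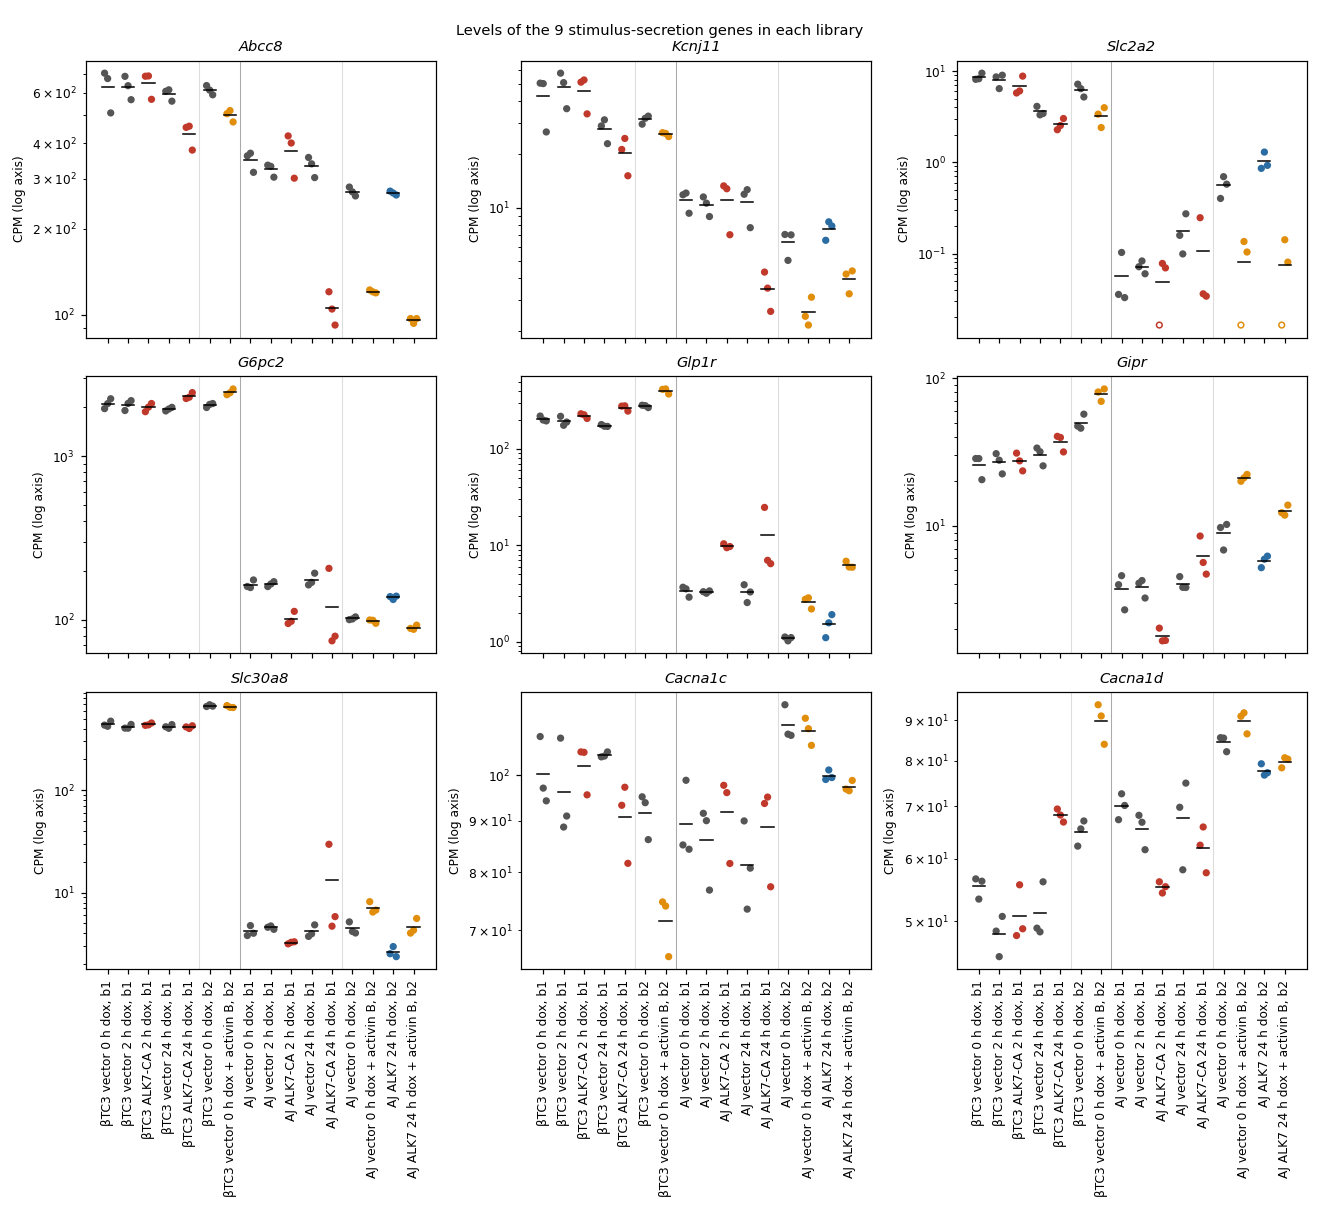
CPM on a log axis for the 9 genes in each of 48 libraries; each point is a library, black lines are the means of 3, open points at the bottom are libraries with no count, and b1 and b2 are the batches. Grey is vector, red ALK7-CA, orange activin B and blue wild-type ALK7 without ligand. Abcc8 falls in AJ from means of 270 to 348 CPM in vector cells without dox to 95.7 to 121 CPM after activin B or 24 h of ALK7-CA.

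Between the lines, 7 of the 9 genes were higher in βTC3 in each batch, where 36.5% and 37.6% of all tested genes were, and 1 and 2 were lower, where 35.6% and 38.5% of all tested genes were. A difference alone sets the 9 apart little, and their sizes differed widely. Slc30a8 was 106-fold higher in βTC3 in batch 1 (443 ± 27.2 against 4.19 ± 0.502 CPM, mean ± SD, n = 3 each) and 144-fold in batch 2. Glp1r was 61.5-fold and 248-fold higher. G6pc2 was 12.8-fold and 19.3-fold higher, Gipr 6.94-fold and 5.39-fold, Kcnj11 3.87-fold and 4.76-fold, and Abcc8 1.82-fold and 2.19-fold. Each calcium channel gene differed between the lines by 1.35-fold or less. Cacna1d was 1.25-fold lower in βTC3 in batch 1 and 1.35-fold lower in batch 2, and Cacna1c was 1.27-fold lower in batch 2 and not called in batch 1 (log2 difference 0.17, adjusted p = 0.13). Slc2a2 was 141-fold higher in βTC3 in batch 1 and 10.9-fold in batch 2, on 5 and 33 reads in all in the AJ groups. In batch 1 it passed the low-count filter through βTC3 alone, so its place among the 7 depends in part on that filter. The median log2 difference was 2.79 in batch 1 and 2.43 in batch 2, against -0.02 and -0.01 over all genes.

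The same vector cells without dox also differed between batches, which the labels give only as numbers 1 and 2. The libraries of the batches did not overlap for 5 of 9 genes in βTC3 and 8 of 9 in AJ, and for 51.8% and 49.3% of all genes tested in either batch. In AJ, Glp1r was 3.12-fold lower and G6pc2 1.61-fold lower in batch 2, while Gipr was 2.38-fold and Slc2a2 9.77-fold higher. In βTC3, Gipr was 1.94-fold and Slc30a8 1.51-fold higher in batch 2. All ALK7-CA libraries were in batch 1 and all activin B libraries in batch 2, so each effect was measured against controls of its own batch. Where levels of different batches are set side by side, agent and batch cannot be told apart.

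Both treatments moved some of the 9 genes up and others down, and the counts are read against the share of all tested genes called in the same direction at an adjusted p under 0.05 (edgeR quasi-likelihood F test, Benjamini-Hochberg). After 24 h of ALK7-CA in βTC3, 3 of 9 rose and 1 fell, where 8.02% of all genes rose and 5.48% fell. With replicate number as a block 8 of the 9 were called there, and 27.9% of all genes. After 24 h of ALK7-CA in AJ, 3 of 8 tested genes rose and 2 fell, where 20.8% of all genes rose and 19.9% fell, so that 5 of 8 stands out little. Without replicate 1, 1 rose and 3 fell, where 18.9% and 18% of all genes did. With activin B, 4 of 9 rose and 4 fell in βTC3 (12.3% and 9.97% of all genes). In AJ vector cells 3 rose and 3 fell (11.6% and 10.9%), and in AJ cells with wild-type ALK7 3 rose and 4 fell (16.5% and 16.3%). In both AJ comparisons the genes that fell include Slc2a2. It passed the low-count filter there only through groups without the ligand, so these counts depend in part on that filter. After 2 h of ALK7-CA, 1 of 8 rose and 1 fell in AJ (8.24% and 7.54% of all genes), and in a fit of the 6 libraries compared, which leaves out the doubtful library, 5 of 8 were called, and 12.4% of all genes. In βTC3 at 2 h none of 9 was called by edgeR or by DESeq2, 1 (Glp1r) had an unadjusted p under 0.05, and 1.53% of all genes were called. The median log2 change of the 9 genes lay between -0.07 and 0.04 in these comparisons, close to the median of all genes.

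**Figure D2:**
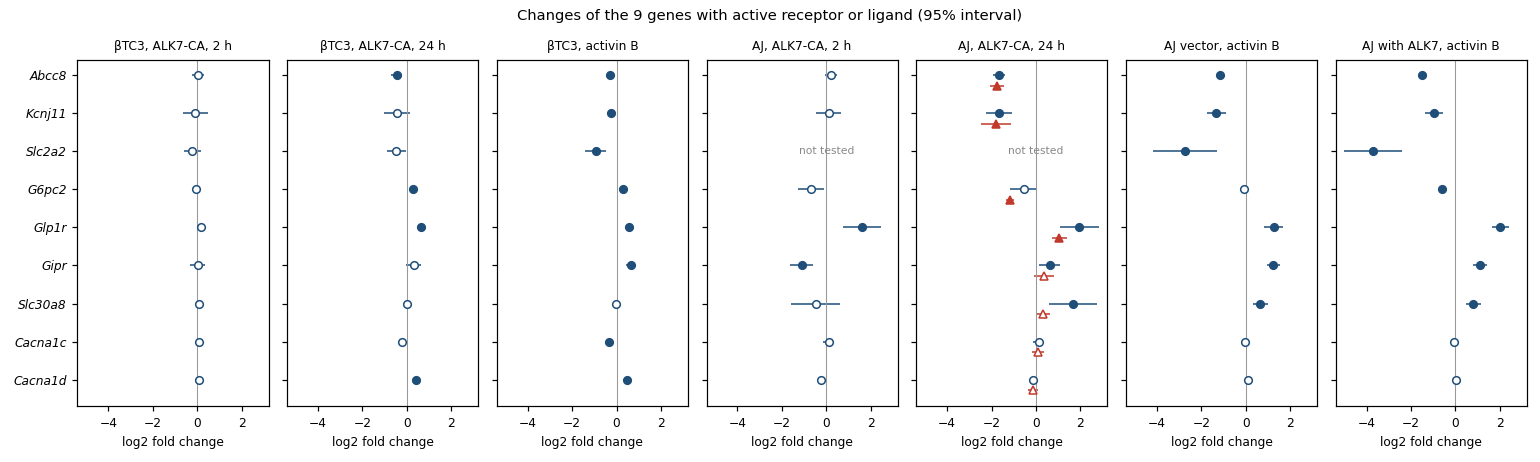
Log2 fold change with its 95% interval for each gene in the 7 comparisons with vector or untreated cells; filled symbols passed the adjusted threshold, open ones did not, and red triangles leave out AJ ALK7-CA 24 h replicate 1. Abcc8 and Kcnj11 lie left of 0 and Glp1r right of 0 at 24 h in every panel of 24 h, with Kcnj11 not called in βTC3 ALK7-CA.

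The KATP channel genes Abcc8 and Kcnj11 lie next to each other on the minus strand of chromosome 7 (mm10), at 46104523 to 46180033 and at 46093953 to 46100764, with 3758 bases and no coding gene between them. Both fell together in AJ after 24 h. The Abcc8 libraries read 356, 338 and 303 CPM in AJ vector cells after 24 h of dox and 120, 105 and 92.0 CPM with ALK7-CA. The groups did not overlap, and the fall was 3.17-fold (log2 -1.66 ± 0.132 SE, adjusted p = 2.91e-07), or 3.38-fold without replicate 1 (log2 -1.76). The Kcnj11 libraries read 11.9, 12.6 and 7.70 CPM in vector and 4.32, 3.50 and 2.59 CPM with ALK7-CA, again without overlap. That fall was 3.13-fold (log2 -1.65 ± 0.27 SE, adjusted p = 0.000252) and 3.53-fold without replicate 1. At 2 h neither was called in AJ. Kcnj11 read 13.3, 12.8 and 7.03 CPM against 11.5, 10.6 and 8.90 CPM in vector, with overlap (log2 0.11). Abcc8 stood at 424, 400 and 301 CPM against 334, 331 and 304 CPM in vector (log2 0.22 ± 0.128 SE, adjusted p = 0.293), and it was called higher when replicate number was added as a block (log2 0.21, adjusted p = 0.0248) or ALK7-CA replicate 3 was left out (log2 0.36, adjusted p = 0.0325). Replicate 3 was the low one, below every vector library. The change at 24 h was lower than that at 2 h by 1.89 for Abcc8 and by 1.75 for Kcnj11 on the log2 scale (adjusted p = 7.24e-06 and 0.00391), where 21% of all genes differed between the times (18.5% without replicate 1, with changes of -1.98 and -1.93).

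Activin B gave the same direction in AJ. Abcc8 went from 280, 270 and 261 CPM to 122, 120 and 119 CPM in vector cells, a 2.25-fold fall with very close replicates (log2 -1.17 ± 0.0311 SE, adjusted p = 3.7e-10). Kcnj11 went from 7.05, 5.03 and 7.01 CPM to 2.43, 2.17 and 3.12 CPM, a 2.49-fold fall (adjusted p = 0.000361). In AJ cells with wild-type ALK7, Abcc8 went from 271, 267 and 263 CPM to 97.0, 93.3 and 96.9 CPM, a 2.81-fold fall, and Kcnj11 fell 1.93-fold. Abcc8 fell further in these cells than in vector cells, by 0.32 on the log2 scale (SE 0.0435, adjusted p = 0.00201), where 2.56% of all genes differed in this way. The cells with wild-type ALK7 had 24 h of dox and the vector cells none, so receptor and dox cannot be told apart in this difference. For Kcnj11 that difference was 0.37 in the other direction with a 95% interval from -0.21 to 0.95. ALK7-CA for 24 h lowered Abcc8 in AJ by 0.50 more than activin B did on the log2 scale (adjusted p = 0.0199, and 0.60 without replicate 1), where 15.6% of all genes differed, in different batches.

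In βTC3 the falls were smaller. Abcc8 read 607, 614 and 561 CPM in vector at 24 h and 454, 458 and 378 CPM with ALK7-CA, without overlap, a 1.38-fold fall (log2 -0.46 ± 0.122 SE, adjusted p = 0.0211). This call was lost when vector replicate 1, vector replicate 2 or ALK7-CA replicate 3 was left out (log2 -0.45, -0.44 and -0.39). Kcnj11 read 29.0, 31.4 and 23.0 CPM against 21.3, 24.6 and 15.1 CPM, and the groups overlapped. It was not called (log2 -0.45 ± 0.269 SE, adjusted p = 0.37) unless replicate number was a block (log2 -0.46, adjusted p = 0.00261), and replicate 3 was the lowest for Kcnj11 in every βTC3 group of batch 1. With activin B, Abcc8 went from 636, 613 and 590 CPM to 507, 520 and 474 CPM (1.22-fold lower, adjusted p = 0.00263) and Kcnj11 from 29.6, 32.0 and 32.9 CPM to 26.5, 26.3 and 25.2 CPM (1.21-fold lower, adjusted p = 0.0182). The Kcnj11 call was lost without untreated replicate 2 or treated replicate 2 or 3, with log2 changes of -0.27, -0.28 and -0.25. The effects on both genes differed between the lines: with activin B the log2 change in βTC3 was 0.88 higher for Abcc8 and 1.05 higher for Kcnj11 (adjusted p = 3.27e-06 and 0.00436), where 9.12% of all genes differed. With 24 h of ALK7-CA it was 1.20 higher for each (adjusted p = 0.000265 and 0.0336, and 1.31 for Abcc8 without AJ replicate 1), where 17.5% of all genes differed (16.6% without AJ replicate 1), and the Kcnj11 difference lost its call when any of 8 single libraries was left out, though not without AJ ALK7-CA replicate 1 (1.39, adjusted p = 0.0241).

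**Figure D3:**
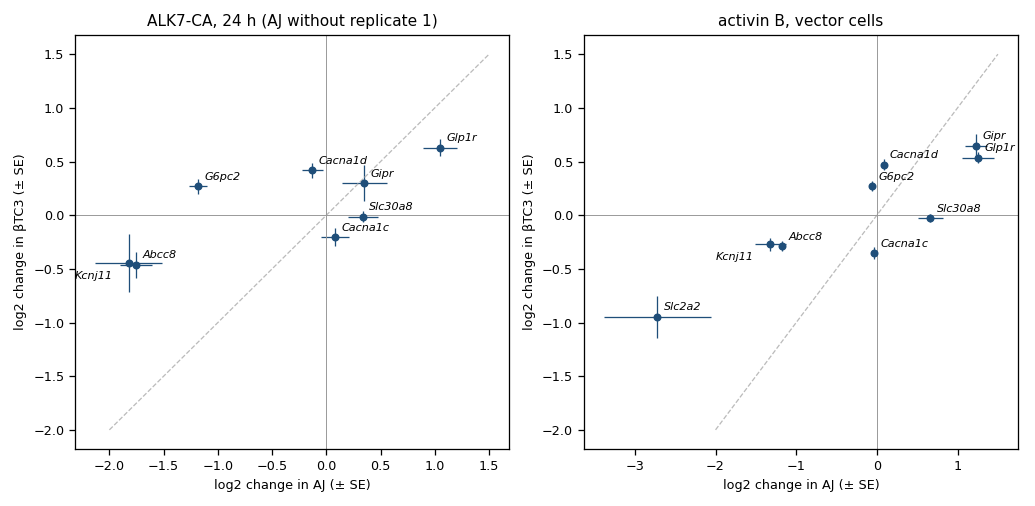
Log2 change in βTC3 against log2 change in AJ with SE bars, for 24 h of ALK7-CA on the left, where AJ is without replicate 1 and Slc2a2 is not tested in AJ, and for activin B in vector cells on the right; the dashed line marks equal changes. Abcc8 and Kcnj11 lie at -1.17 and -1.32 in AJ and at -0.29 and -0.27 in βTC3 with activin B, and G6pc2 lies left of 0 in AJ and above 0 in βTC3 on both sides, with its AJ value for activin B (-0.06) not called.

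Slc2a2 and G6pc2, which act on glucose entry and on the glucose cycle, are shown with bases before a RefSeq start (GRCm38.p6), together with Glp1r. These 3 genes were picked after their changes were known. Slc2a2 was called lower with activin B and not with ALK7-CA. G6pc2 was called higher in βTC3 at 24 h, and in AJ lower only in some comparisons or settings. Glp1r was called higher in both lines at 24 h. The part of these bases in those changes was not tested. The G6pc2 stretch lies inside the GENCODE span of the gene, 69211073 to 69227841. The window before its upstream start, 69210823 to 69211072, is not shown and also holds 1 match to the element marked here. Capitals mark CAGAC or its reverse complement GTCTG, the short element that SMAD proteins are known to bind.
Slc2a2, chr3:28697653-28697902, plus strand: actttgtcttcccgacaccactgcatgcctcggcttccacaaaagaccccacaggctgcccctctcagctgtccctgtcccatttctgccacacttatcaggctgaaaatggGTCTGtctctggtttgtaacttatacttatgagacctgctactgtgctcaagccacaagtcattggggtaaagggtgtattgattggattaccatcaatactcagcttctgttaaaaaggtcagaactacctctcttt
G6pc2, chr2:69219699-69219948, plus strand, the downstream one of 2 listed starts: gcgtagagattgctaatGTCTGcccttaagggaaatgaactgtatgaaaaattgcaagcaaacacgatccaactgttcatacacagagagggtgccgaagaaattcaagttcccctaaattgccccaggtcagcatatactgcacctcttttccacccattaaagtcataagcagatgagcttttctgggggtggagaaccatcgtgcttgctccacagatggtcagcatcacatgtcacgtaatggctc
Glp1r, chr17:30901617-30901816, plus strand, ended before the GENCODE transcript start: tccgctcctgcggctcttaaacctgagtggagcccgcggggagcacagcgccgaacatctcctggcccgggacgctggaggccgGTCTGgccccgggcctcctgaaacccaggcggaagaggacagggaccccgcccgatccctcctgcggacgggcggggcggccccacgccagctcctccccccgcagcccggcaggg
Each of these stretches holds 1 match, and 42.2% of the 32851 windows of 250 bases before a start in the table hold at least 1, so a match is common. The table holds 9 windows for 5 of the 9 genes, of which 7 hold CAGAC on either strand. The SMAD palindrome GTCTAGAC, which does not contain that word on either strand, is in none of the 9 and in 0.167% of all windows. The 4 genes with no window are Abcc8, Kcnj11, Gipr and Slc30a8.

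Slc2a2 fell wherever activin B was given. In βTC3 it went from 7.20, 6.42 and 5.20 CPM to 3.38, 2.41 and 3.97 CPM, without overlap (1.93-fold lower, log2 -0.95 ± 0.198 SE, adjusted p = 0.0111). In AJ vector cells it went from 0.402, 0.696 and 0.576 CPM to 0, 0.135 and 0.104 CPM, that is from 33 reads to 5 over 3 libraries (log2 -2.72 ± 0.661 SE, adjusted p = 0.0108). In AJ cells with wild-type ALK7 it went from 60 reads to 5 (log2 -3.69 ± 0.596 SE, adjusted p = 0.000492). These sizes rest on few reads. In AJ the gene passed the low-count filter (minimum count 10) only through groups without the ligand. The AJ calls, which enter the counts of genes that fell given above, therefore depend in part on that filter. The difference between the lines was 1.77 on the log2 scale with a 95% interval from 0.37 to 3.17 (adjusted p = 0.122). This gene was also lower in βTC3 vector cells after 24 h of dox than at 0 h. They went from 8.13, 8.25 and 9.50 CPM to 4.11, 3.31 and 3.43 CPM, a 2.38-fold fall (log2 -1.25 ± 0.181 SE, adjusted p = 0.000337). Dox and time in culture were not told apart in this fall. The 24 h ALK7-CA libraries of βTC3 lay lower still at 2.28, 2.53 and 3.02 CPM, and against 24 h vector the change was -0.47 ± 0.19 SE on the log2 scale (adjusted p = 0.137, and 0.033 with replicate number as a block). In AJ of batch 1 the gene had 5 to 16 reads per group and was not tested.

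With 24 h of ALK7-CA or activin B, G6pc2 rose in βTC3, and in AJ it fell where it was called. In βTC3 at 24 h the libraries read 1886, 1938 and 1984 CPM in vector and 2245, 2287 and 2440 CPM with ALK7-CA (1.2-fold higher, log2 0.27 ± 0.0665 SE, adjusted p = 0.0148). The groups did not overlap, and the call was lost without vector replicate 1 or ALK7-CA replicate 3 (log2 0.24 and 0.23) and without a low-count filter. Activin B raised it 1.21-fold in βTC3, from 1979, 2067 and 2093 CPM to 2370, 2435 and 2569 CPM (log2 0.27 ± 0.0457 SE, adjusted p = 0.00423). In AJ at 24 h of ALK7-CA the libraries read 206, 74.5 and 79.5 CPM against 164, 169 and 193 CPM in vector. Replicate 1 was above all vector libraries and the other 2 were below them, so with 3 libraries the change was not called (log2 -0.56, adjusted p = 0.125) and with 2 it was a 2.27-fold fall (log2 -1.18 ± 0.0824 SE, adjusted p = 2.73e-07). The excess of replicate 1 over the mean of the other 2 was 129 CPM for G6pc2, 24.4 for Slc30a8, 18 for Glp1r, 3.35 for Gipr and 22 for Abcc8, and 5.51% of the level in βTC3 vector cells at 24 h is 107, 23.1, 9.61, 1.67 and 32.7 CPM. The part of βTC3 RNA in that library was not tested. At 2 h in AJ, 95.01, 98.0 and 113 CPM with ALK7-CA lay below 160, 166 and 171 CPM in vector. In a fit of these 6 libraries that fall passed (log2 -0.71 ± 0.0651 SE, adjusted p = 0.00112), while the fit of all 15 AJ libraries of the batch, which includes the doubtful one in its estimate of spread, did not call it (log2 -0.69 ± 0.276 SE, adjusted p = 0.118).

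With activin B, AJ vector cells showed no G6pc2 call: 100, 101 and 104 CPM became 99.9, 99.4 and 95.3 CPM (log2 -0.06, 95% interval -0.15 to 0.02). In AJ cells with wild-type ALK7, 139, 133 and 140 CPM became 88.7, 87.6 and 92.9 CPM, a 1.54-fold fall (adjusted p = 1.73e-07). The activin B effect was lower in cells with wild-type ALK7 and dox than in vector cells without dox by 0.56 on the log2 scale (SE 0.0541, adjusted p = 0.000248), and again receptor and dox cannot be told apart. Cells with wild-type ALK7 and 24 h of dox started higher than vector cells without dox, by 1.35-fold, so after activin B both AJ groups stood close together at 89.7 ± 2.79 and 98.2 ± 2.51 CPM. The activin B effect on G6pc2 in βTC3 was 0.33 higher than in AJ vector cells (SE 0.0641, adjusted p = 0.00659). For 24 h of ALK7-CA the effect in βTC3 exceeded that in AJ by 0.83 with all libraries, which was not called (SE 0.429, adjusted p = 0.231), and by 1.47 without AJ replicate 1 (adjusted p = 6.99e-06). The change with 24 h of ALK7-CA minus that with activin B in AJ was likewise called for G6pc2 without replicate 1 (log2 -1.13, adjusted p = 1.7e-05, where 14% of all genes differed) and not with it (log2 -0.50, adjusted p = 0.488), in different batches.

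Glp1r rose in 6 of the 7 comparisons and was the one of the 9 genes that was called so often in 1 direction. In βTC3 the 24 h libraries read 179, 172 and 172 CPM in vector and 279, 281 and 248 CPM with ALK7-CA, a 1.55-fold rise without overlap (log2 0.63 ± 0.08 SE, adjusted p = 9.74e-05). At 2 h they read 218, 176 and 190 CPM against 232, 227 and 208 CPM, which overlapped (log2 0.18, adjusted p = 0.412). The later effect was larger by 0.44 on the log2 scale (adjusted p = 0.0342), where 5.85% of all genes differed, but 10 of the 12 settings that left out 1 library lost that call. Activin B took Glp1r in βTC3 from 285, 282 and 269 CPM to 416, 420 and 372 CPM (1.45-fold, adjusted p = 0.000213). The vector cells themselves fell with 24 h of dox by 0.24 on the log2 scale (adjusted p = 0.0482), and leaving out any 1 of the 6 libraries lost that call.

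In AJ, where the level of Glp1r was 1 to 4 CPM in vector cells, the rise was already present at 2 h of ALK7-CA: 3.29, 3.18 and 3.36 CPM became 10.4, 9.44 and 9.71 CPM, a 3.02-fold rise (log2 1.59 ± 0.399 SE, adjusted p = 0.0147) that lost its call without vector replicate 2 or 3. At 24 h, 3.89, 2.54 and 3.27 CPM stood against 24.7, 6.97 and 6.44 CPM. All 3 treated libraries lay above the vector ones, with replicate 1 far above the rest. The rise was 3.87-fold with it and 2.07-fold without it (log2 1.95 and 1.05, adjusted p = 0.00152 and 0.000179). Activin B raised Glp1r 2.38-fold in AJ vector cells, from 1.11, 1.02 and 1.10 CPM to 2.75, 2.84 and 2.18 CPM, and 4.06-fold in cells with wild-type ALK7, from 1.10, 1.56 and 1.90 CPM to 6.83, 5.95 and 5.91 CPM (adjusted p = 0.000623 and 4.67e-06). The difference between these 2 rises was 0.77 with a 95% interval from 0.18 to 1.36 and was not called (adjusted p = 0.208). The activin B rise was smaller in βTC3 than in AJ vector cells by 0.73 on the log2 scale (SE 0.144, adjusted p = 0.00868), from a level that was 248-fold higher.

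Gipr, the other incretin receptor gene, rose with activin B in each of the 3 comparisons. It went from 47.3, 45.8 and 57.0 CPM to 80.6, 69.6 and 84.5 CPM in βTC3 (1.57-fold, adjusted p = 0.00333). In AJ vector cells 9.73, 6.85 and 10.2 CPM became 20.02, 21.1 and 22.3 CPM (2.35-fold, adjusted p = 3.85e-05). In cells with wild-type ALK7 5.20, 5.94 and 6.22 CPM became 12.2, 11.8 and 13.8 CPM (2.16-fold, adjusted p = 7.26e-05). With ALK7-CA in AJ the gene first fell and was then no longer low. At 2 h 4.08, 4.25 and 3.24 CPM stood against 2.02, 1.66 and 1.67 CPM, a 2.15-fold fall without overlap (adjusted p = 0.00566). At 24 h 4.52, 3.83 and 3.82 CPM stood against 8.52, 5.64 and 4.70 CPM, called higher with replicate 1 (log2 0.62, adjusted p = 0.0425) and not called without it (log2 0.35, adjusted p = 0.219) or without ALK7-CA replicate 2 or any 1 vector library (log2 0.57 to 0.71). The change at 24 h exceeded that at 2 h by 1.72 with it (adjusted p = 0.00186) and by 1.45 without it (adjusted p = 0.0034). The change with 24 h of ALK7-CA minus that with activin B in AJ was -0.63 with it (adjusted p = 0.185) and -0.90 without it (adjusted p = 0.0279). In βTC3 ALK7-CA at 24 h gave 0.30 on the log2 scale (adjusted p = 0.303), called higher with replicate number as a block (adjusted p = 0.000413).

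**Figure D4:**
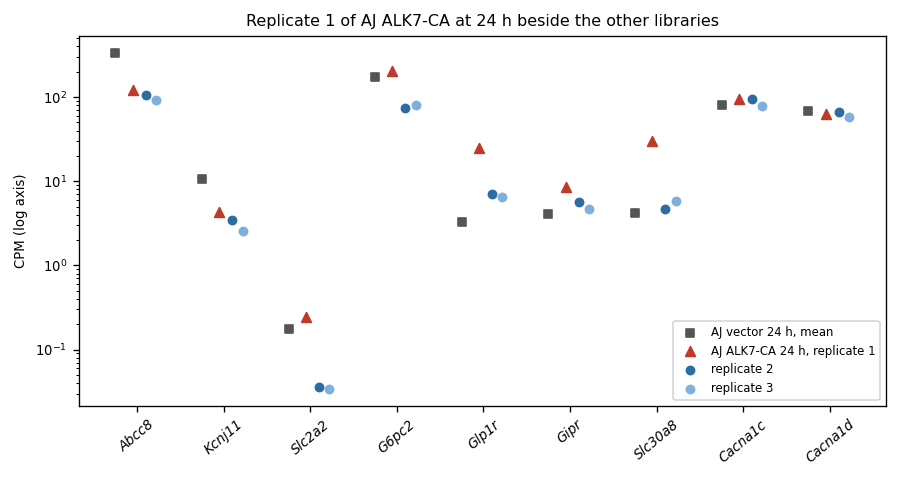
CPM on a log axis for the 9 genes in AJ cells of batch 1 after 24 h of dox: grey squares are the means of 3 vector libraries, the other symbols single ALK7-CA libraries. Replicate 1 stands above replicates 2 and 3 for Slc30a8 (29.7 against 4.70 and 5.83 CPM), Glp1r, G6pc2, Gipr and Slc2a2, and all 3 lie below vector for Abcc8 and Kcnj11.

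Slc30a8, which codes for the zinc transporter of the insulin granule, was not called in βTC3 and had narrow intervals there. It read 418, 404 and 439 CPM in vector and 416, 402 and 427 CPM with ALK7-CA at 24 h, a log2 change of -0.01 with a 95% interval from -0.13 to 0.11. With activin B it read 659, 686 and 664 CPM without and 673, 648 and 644 CPM with the ligand, a log2 change of -0.03 with an interval from -0.11 to 0.06. In AJ, where the gene was about 4 CPM, activin B raised it from 5.17, 4.17 and 4.03 CPM to 8.15, 6.45 and 6.75 CPM (1.58-fold, adjusted p = 0.00748), and from 2.53, 2.97 and 2.37 CPM to 4.02, 4.29 and 5.59 CPM with wild-type ALK7 (1.76-fold, adjusted p = 0.00197). The activin B change in βTC3 was 0.69 lower than in AJ vector cells (adjusted p = 0.00295). At 24 h of ALK7-CA in AJ the libraries read 29.7, 4.70 and 5.83 CPM against 3.73, 3.96 and 4.84 CPM, so 1 library set the mean. The call (log2 1.66, adjusted p = 0.0182) was lost without it (log2 0.34, adjusted p = 0.0759), and also without vector replicate 1 or 2 (log2 1.59 and 1.62). At 2 h 3.16, 3.27 and 3.31 CPM lay below 4.58, 4.72 and 4.38 CPM, which passed in the fit of these 6 libraries (log2 -0.50, adjusted p = 0.0169) and not in the fit of all 15 (adjusted p = 0.626). The change at 24 h minus that at 2 h was 2.14 with replicate 1 (adjusted p = 0.0505) and 0.82 without it (adjusted p = 0.00821).

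The L-type channel genes went opposite ways in βTC3 with activin B. Cacna1d rose from 62.3, 65.5 and 67.0 CPM to 94.2, 91.2 and 83.9 CPM (1.39-fold, adjusted p = 0.000624) and Cacna1c fell from 95.1, 93.9 and 86.2 CPM to 74.7, 74.0 and 65.8 CPM (1.28-fold, adjusted p = 0.00348). Neither pair of groups overlapped. With 24 h of ALK7-CA in βTC3, Cacna1d again rose, from 49.0, 48.5 and 56.1 CPM to 69.4, 68.2 and 66.8 CPM (1.34-fold, adjusted p = 0.00123), and Cacna1c changed by -0.20 ± 0.0876 SE on the log2 scale (adjusted p = 0.167, and 0.0266 with replicate number as a block). At 2 h of ALK7-CA in AJ, Cacna1d read 68.2, 66.8 and 61.6 CPM in vector and 56.1, 54.3 and 55.3 CPM with ALK7-CA, without overlap. That was not called (log2 -0.24 ± 0.0816 SE, adjusted p = 0.0671), but it was called lower by DESeq2 (adjusted p = 0.0425), with the filter of 1 CPM in 3 libraries (0.045) and in the fit of the 6 libraries compared (0.0465). In AJ neither gene was called with activin B or with 24 h of ALK7-CA, and the log2 changes lay between -0.13 and 0.11, though Cacna1d was called lower at 24 h without vector replicate 2 (log2 -0.23, adjusted p = 0.021). The βTC3 change of Cacna1d exceeded that of AJ by 0.38 with activin B and by 0.56 with 24 h of ALK7-CA (adjusted p = 0.0033 and 0.0113, and 0.023 for the latter without AJ replicate 1), and for Cacna1c it was lower by 0.33 with activin B (adjusted p = 0.0132). Cacna1d shares 589 exon bases with the opposite-strand gene Chdh, which had a median count of 1, and whether counting used the strand is not given in the sources used here.

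Other contrasts bear on the controls. In AJ vector cells, none of 8 tested genes was called for 24 h of dox against 0 h by edgeR or DESeq2 (none at an unadjusted p under 0.05). By edgeR 2.71% of all genes were called. That fit held all AJ libraries of the batch, with the doubtful library in its estimate of spread. The absence of a call there does not show the absence of a change. In βTC3 vector cells 2 of 9, Slc2a2 and Glp1r, were called lower after 24 h of dox than at 0 h, where 12.7% of all genes fell. With replicate number as a block 6 were called, and 45.3% of all genes, with Kcnj11 lower by 0.58 (adjusted p = 0.000236). AJ cells with wild-type ALK7 and 24 h of dox differed from vector cells without dox in 5 of 9 genes: G6pc2 was higher, as were 14.5% of all genes, and Gipr (1.54-fold), Slc30a8 (1.7-fold), Cacna1c (1.12-fold) and Cacna1d (1.08-fold) were lower, as were 14.6%. The Cacna1d call was lost by DESeq2 (log2 -0.12) and without replicate 2 of either group (log2 -0.10 each). Plasmid and dox cannot be told apart there. Summed cell type markers also differed between these groups. The 6 alpha cell markers summed to 952 to 1050 CPM in vector cells and to 228 to 240 CPM with wild-type ALK7. The 4 duct cell markers, of which 1 reached 1 CPM in each group, summed to 1.78 to 1.96 and 8.95 to 10.5 CPM. The part of these markers was not tested. In βTC3 the effects of ALK7-CA and of activin B at 24 h did not differ by the test for any of 9 genes by edgeR or DESeq2 (none at an unadjusted p under 0.05), where 1.36% of all genes differed. The 95% interval of that difference was -0.40 to 0.04 for Abcc8 and -0.09 to 0.26 for Glp1r, and with replicate number as a block Gipr differed (log2 -0.36, adjusted p = 0.0169). In βTC3 the block also called 6 genes, and 16.2% of all genes, for the 24 h minus 2 h difference, among them Abcc8 (log2 -0.51, adjusted p = 0.000422) and Cacna1d (log2 0.34, adjusted p = 0.0228).

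Summed markers of cell types differed between some of these groups. A sum follows its most abundant markers and can hide a marker that moved the other way. In AJ at 24 h the summed level of 8 beta cell markers was 905 to 996 CPM in vector and 476 to 1610 CPM with ALK7-CA, with the top value in the group that holds replicate 1. The sum of 3 delta cell markers was 1560 to 2940 CPM in vector and 447 to 567 CPM with ALK7-CA, and that of 2 PP cell markers was 0.239 to 0.696 and 19.8 to 22.5 CPM. The sum of 6 alpha cell markers was 371 to 389 and 79.3 to 106 CPM, and at 2 h it was 468 to 497 CPM in vector and 175 to 179 CPM with ALK7-CA. With activin B the alpha cell sum went from 952 to 1050 CPM to 819 to 892 CPM in AJ vector cells, and the beta cell sum from 860 to 870 CPM to 617 to 662 CPM in AJ ALK7 cells. In βTC3 the beta cell sum was 18300 to 20500 CPM in vector at 24 h and 16200 to 18400 CPM with ALK7-CA, and 31000 to 33100 CPM without and 23600 to 24900 CPM with activin B. The alpha cell sum in βTC3 was 575 to 587 and 471 to 487 CPM for ALK7-CA and 309 to 323 and 184 to 197 CPM for activin B. The sum of 4 duct cell markers was 10.2 to 10.8 and 33.4 to 36.2 CPM for ALK7-CA and 10.3 to 11 and 30.2 to 33.6 CPM for activin B. Of these 4 markers, 2 reached 1 CPM in each of these βTC3 groups. The delta cell sum was 19.6 to 26.9 CPM without and 9.48 to 13.6 CPM with activin B. Ucn3, a marker of mature mouse beta cells, was under 1 CPM on average in every βTC3 group, but higher without overlap with 24 h of ALK7-CA (0.209 against 0.866 CPM) and with activin B (0.0759 against 0.658 CPM). Acinar markers summed to at most 1.56 CPM in any library of either line. The part of these shifts in the changes of the 9 genes was not tested, and in bulk RNA fewer cells of a kind and less RNA per cell cannot be told apart.

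The wider pathway was read through 8 lists with 123 further genes on glucose uptake, mitochondrial coupling, genes normally kept low in beta cells, calcium channels, potassium and sodium channels, cAMP, receptors and zinc. Of those tested, 31.5% were called in βTC3 and 53.6% in AJ at 24 h of ALK7-CA, 42.7% in βTC3, 38.5% in AJ vector and 46.8% in AJ ALK7 cells with activin B, and 5.41% and 26.8% at 2 h in βTC3 and AJ. Each is above the sum of the shares of all genes given for that comparison, as a description of the lists. Of the 17 calcium channel genes, 14 were tested in βTC3 and 4 rose and 2 fell at 24 h of ALK7-CA. In AJ 6 rose and 4 fell of 16, with or without replicate 1. Of all genes 8.02% rose and 5.48% fell in βTC3, and 20.8% and 19.9% in AJ. Cacna1g, the pore of a T-type channel that opens at low voltage, rose in each 24 h comparison: from 1.34 to 15.4 CPM in βTC3 and from 30.0 to 243 CPM in AJ with ALK7-CA (11.4-fold and 8.02-fold, 7.93-fold without replicate 1), and 7.73-fold, 4.16-fold and 3.76-fold with activin B in βTC3, AJ vector and AJ ALK7 cells. It was also 2.14-fold higher in AJ at 2 h.

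Among 9 tested glucose uptake genes at 24 h of ALK7-CA, 4 fell and none rose in βTC3, and 3 fell and 1 rose in AJ (4 and 1 without replicate 1). The shares of all genes there were 5.48% lower and 8.02% higher in βTC3, and 19.9% lower and 20.8% higher in AJ. Hk1, a hexokinase that beta cells normally keep low, was 1.32-fold lower in βTC3 and 1.68-fold higher in AJ (1.65-fold without replicate 1). With activin B it was 1.63-fold lower in βTC3 and 1.36-fold higher in AJ vector cells. Of 17 mitochondrial coupling genes, 2 rose and 2 fell in βTC3 and 3 rose and 6 fell in AJ (3 and 5 without replicate 1) at 24 h of ALK7-CA. Gpd2, the mitochondrial glycerol phosphate dehydrogenase, fell 1.55-fold in βTC3 and 1.77-fold in AJ (1.76-fold without replicate 1). Malic enzyme Me1 rose 2.06-fold in βTC3 and 2.87-fold in AJ without replicate 1. With activin B Me1 rose 1.62-fold in βTC3 and 1.77-fold in AJ vector cells. Slc16a1, the lactate and pyruvate carrier that beta cells normally silence, rose 2.49-fold in βTC3 and 1.98-fold in AJ at 24 h (1.79-fold without replicate 1) and 3.23-fold, 1.55-fold and 2.18-fold with activin B, after a 1.59-fold fall in AJ at 2 h.

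In the cAMP list of 24 genes, 2 rose and 4 fell of 22 in βTC3 and 6 rose and 6 fell of 24 in AJ (6 and 7 without replicate 1) at 24 h of ALK7-CA. Adcy8, a calcium-stimulated adenylyl cyclase, rose 2.7-fold in βTC3 and 1.92-fold in AJ (1.98-fold without replicate 1). Rapgef4, the cAMP sensor Epac2, fell 2.1-fold in AJ with ALK7-CA (2.12-fold without replicate 1) and rose 1.46-fold with activin B in AJ vector cells. Of 18 receptor genes, 3 rose and 4 fell of 16 in βTC3 and 3 rose and 7 fell of 14 in AJ (4 and 8 without replicate 1). Galr1, a galanin receptor that restrains insulin release, rose 1.57-fold in βTC3 and fell 3.36-fold in AJ at 24 h (3.49-fold without replicate 1). Gpr119, a receptor that raises cAMP, fell 3.64-fold in AJ at 2 h and 5.82-fold with activin B in AJ ALK7 cells. Of potassium and sodium channel genes, 5 rose and 1 fell of 16 in βTC3 and 5 rose and 3 fell of 15 in AJ, with or without replicate 1. Of zinc genes, 1 rose and none fell of 14 in βTC3, and 2 rose and 3 fell of 13 in AJ (2 and 4 without replicate 1). For these lists the shares of all genes at 24 h of ALK7-CA were 8.02% higher and 5.48% lower in βTC3. In AJ they were 20.8% higher and 19.9% lower. The zinc counts in both lines and the cAMP counts in AJ stand out little from these shares. With activin B in AJ vector cells none of 12 zinc genes was called by edgeR or DESeq2, and 2 had an unadjusted p under 0.05. Of all genes 11.6% rose and 10.9% fell there by edgeR.

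Likeness across libraries was measured as Pearson's r of log2(CPM + 0.5), centred on the mean of vector cells without dox of the same batch, as a description over genes with a mean count of at least 20. Over the 26 AJ libraries other than ALK7-CA 24 h replicate 1, 9 groups from both batches, the genes closest to Abcc8 among 12146 were Trim35 (0.966), Nedd4l (0.965), Tmem97 (0.962), Pdx1 (0.959) and Edaradd (0.958). Kcnj11 had an r of 0.876 with Abcc8 and Glp1r one of -0.61. Over the 21 βTC3 libraries in 7 groups, the genes closest to Glp1r among 12305 were Atp11a (0.958), Arrb1, Cttnbp2 and Amotl2 (0.955 each) and Reln (0.953), and Cacna1d was the nearest of the other 8 (0.856). These libraries share groups and batches, so the r values follow the differences between groups.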

How the data were processed

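PolyA RNA was sequenced from stranded mRNA libraries, per the labels' protocols. The submitters' processing notes name mm10 as the build and list edgeR, HISAT2, featureCounts 1.4.4, cutadapt 1.4.2 and bcl2fastq 2.17. The strand setting, annotation release and HISAT2 version were not given in the sources used here. Whole-number counts per Ensembl gene were deposited by the authors and equalled the series' count table in 48 of 48 columns. The 48 columns of a normalized table were left out, as nothing states their scaling. Symbols and positions came from GENCODE M21 (37693 of 39017 identifiers) and promoters from RefSeq GRCm38.p6, matched by symbol.

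Counts were fitted with edgeR 4.0.16 in R 4.3.3 (filterByExpr, TMM, quasi-likelihood F test, Benjamini-Hochberg over all tested genes, threshold 0.05). One fit held all libraries of a line in a batch; a comparison across lines or batches used the libraries of its groups. SE is the log2 change over the square root of F. As alternatives the scaling was changed to RLE, the tool to DESeq2 1.42.0, the filter to none or to 1 CPM in 3 libraries, the fit to the compared groups only, replicate number was added as a block, and each library was left out. No replicates were identical (chi-square per gene 6.34 to 51.1).

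Replicate numbers were read as pairing samples where all same-numbered deviations from the group means correlated over 0.1 across genes. In βTC3 every pair of groups passed, 10 of 10 in batch 1 and 1 of 1 in batch 2. In AJ, 9 of 10 passed in batch 1, among them each pair compared here, and 0 of 6 in batch 2. The labels do not say what a number marks. The main fits used group means only and left this pairing out, also where it passed. A gene not called in them can therefore be called with the block, and such calls are given as alternatives.

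The genes and lists were chosen with earlier results of these data known. All 9 genes are named. From the other lists, the 2 called genes with the lowest adjusted p in each list and comparison could be named, and not all were. Acvr1c and Smad7 are named as checks.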

Additional observations from a re-analysis of the deposited data

Results flagged for a closer look

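The results below are differences between 2 effects that passed the test of the difference itself, as log2 values from edgeR's quasi-likelihood F test with adjustment over all genes. Abcc8 recurs most, in 5 of them, and Kcnj11 in 3. All libraries are included. Without AJ ALK7-CA 24 h replicate 1, G6pc2 was also called in the ALK7-CA difference between lines (1.465) and between times in AJ (-0.493). It was then called in AJ for ALK7-CA minus activin B as well (-1.13). Calls were also gained for Slc30a8 between times in AJ (0.819) and Gipr for ALK7-CA minus activin B in AJ (-0.896). For 24 h of ALK7-CA, the change in βTC3 minus that in AJ was 1.203 for Abcc8 (SE 0.153), 1.204 for Kcnj11 (SE 0.346) and 0.557 for Cacna1d (SE 0.128). Of all genes 17.5% differed there, and most settings that left out 1 library lost the Kcnj11 call. For activin B in vector cells, the change in βTC3 minus that in AJ was 0.877 for Abcc8 (SE 0.0591), 1.046 for Kcnj11 (SE 0.192), 0.326 for G6pc2 (SE 0.0641) and 0.384 for Cacna1d (SE 0.0675). It was -0.728 for Glp1r (SE 0.144), -0.693 for Slc30a8 (SE 0.12) and -0.331 for Cacna1c (SE 0.0728), where 9.12% of all genes differed.

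Between times of ALK7-CA, the change at 24 h minus that at 2 h was 0.444 for Glp1r in βTC3 (SE 0.113), where 5.85% of all genes differed. Most settings that left out 1 library lost that call. In AJ the same difference was -1.887 for Abcc8 (SE 0.183), -1.753 for Kcnj11 (SE 0.369) and 1.72 for Gipr (SE 0.326). Of all genes 21% differed there. The change of Abcc8 in AJ with 24 h of ALK7-CA minus that with activin B was -0.5 (SE 0.127), in different batches. There 15.6% of all genes differed. The activin B change with wild-type ALK7 minus that in AJ vector cells was -0.32 for Abcc8 (SE 0.0435) and -0.56 for G6pc2 (SE 0.0541). Of all genes 2.56% differed in that way, and receptor and dox cannot be told apart in it.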

How the results depend on the processing

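Of 2273 values of the 9 genes under an alternative, 2171 kept their side of the threshold and, where called, their direction; 49 of these were uncalled values whose sign differed. A call was lost in 54, of which 44 left out 1 library, and gained in 47, of which 18 used the block. The 1 that reversed was G6pc2 in the 24 h minus 2 h difference in AJ, 0.132 and not called with all libraries and -0.493 and called without ALK7-CA 24 h replicate 1, and -0.493 to 0.378 over all settings that left out 1 library. The lowest counts, those of Slc2a2 in AJ, limit what depth can show.

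With replicate number as a block, the genes of the 9 called were 8 in place of 4 (βTC3 ALK7-CA 24 h), 6 in place of 2 (βTC3 dox), 6 in place of 1 (βTC3 time difference), 1 in place of 0 (βTC3 ALK7-CA minus activin B) and 2 in place of 1 (that difference in AJ, where Gipr was added). The block also called Glp1r (-1.193) in the ALK7-CA difference between lines and Gipr (-0.595) in that for activin B. All genes called with the block were 1136 in place of 241 (βTC3 ALK7-CA 2 h), 4410 for 2134 (βTC3 ALK7-CA 24 h), 3895 for 2443 (AJ ALK7-CA 2 h), 7165 for 3674 and 1603 for 419 (dox in βTC3 and AJ), 2553 for 924 and 4954 for 3246 (time difference in βTC3 and AJ), 811 for 207 (βTC3 ALK7-CA minus activin B) and 623 for 381 (wild-type ALK7 difference in AJ batch 2, where samples share only a number). The block ended no call of the 9 genes, and the 18 it added are counted here or given beside the results. No paired analysis was possible between vector cells of the lines because a block nested in line leaves no residual degrees of freedom.

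Slc2a2 was not tested in AJ at 2 or 24 h of ALK7-CA, so counts there are out of 8, here and where libraries are left out. A fit of the compared groups only called 5 for 2 in AJ at 2 h and 3 for 5 in AJ at 24 h. It called 1 of the 9 for 2 with dox in βTC3 and 2 for 1 in the βTC3 time difference. All genes called were 31 (βTC3 ALK7-CA 2 h), 1845 (AJ ALK7-CA 2 h), 2135 (βTC3 dox) and 20 (AJ dox). Without a low-count filter all genes called were 150 (βTC3 ALK7-CA 2 h) and 210 (AJ dox), and with DESeq2 375, 837 and, for βTC3 ALK7-CA minus activin B, 327. RLE scaling and no filter each called 1 of the 9 with dox in βTC3, and DESeq2 called 3 in the βTC3 time difference. The cause was not tested, beyond the smaller number of libraries in the fit of the compared groups only.

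Leaving out each library gave these ranges of the 9 genes called: 2 to 4 (βTC3 ALK7-CA 24 h), 1 to 3 and 3 to 5 (AJ ALK7-CA 2 and 24 h), 7 to 8 (βTC3 activin B), 4 to 6 (AJ wild-type ALK7 against vector), 1 to 2 (βTC3 dox), 2 to 4 and 7 to 8 (difference between lines for ALK7-CA and activin B), 0 to 1 and 3 to 5 (time difference in βTC3 and AJ) and 1 to 3 (AJ ALK7-CA minus activin B). Over all genes these ranges were 1619 to 1866 (βTC3 ALK7-CA 24 h), 1726 to 2518 and 5347 to 6477 (AJ ALK7-CA 2 and 24 h). They were 2174 to 3046 (βTC3 activin B), 3556 to 3965 (AJ wild-type ALK7 against vector) and 2504 to 3311 (βTC3 dox). For the differences they were 2285 to 3247 and 1010 to 1421 (lines), 641 to 806 and 2613 to 3514 (time) and 1802 to 3030 (AJ ALK7-CA minus activin B). All genes called also ranged from 77 to 208 (βTC3 ALK7-CA 2 h), 116 to 678 (AJ dox), 114 to 218 (βTC3 ALK7-CA minus activin B) and 239 to 363 (wild-type ALK7 difference).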
